A study of Mus musculus with 14 samples.

Results

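RNA sequencing of mouse corpus callosum, the large white matter tract that joins the cerebral hemispheres, was compared between 4 libraries labelled Qk-KO and 4 labelled WT. The genes described are all those with a mean normalized count of at least 10 over the 8 callosum libraries, 19346 of the 46983 genes in the table. The series holds 14 libraries, and the other 6 come from oligodendrocytes grown in culture from neural stem cells. The mice were FvB/C57BL6 hybrids. The group labelled Qk-KO was Plp-CreERT2;QKLoxP/LoxP (genotype label Qk-/-), with both copies of Qk floxed. The group labelled WT was Plp-CreERT2;QKLoxP/+, so the controls carried the Cre transgene and 1 floxed copy of Qk. Both groups were given tamoxifen at an age of 8 weeks, 4 days before the callosum was removed. The Plp promoter drives the tamoxifen-dependent Cre in cells of the oligodendrocyte lineage, so the deletion is aimed at those cells, while the RNA comes from the whole tissue. The groups are called Qk-KO and WT below, as labelled.

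Qk encodes quaking, an RNA-binding protein of the STAR family that governs the splicing, stability and transport of messenger RNAs and is abundant in myelinating glia. Oligodendrocytes wrap axons in compact myelin, a lipid-rich stack of membrane held together by proteins such as Mbp. Microglia, the resident macrophages of the brain, clear myelin debris, and in damaged white matter they take up a phagocytic state in which the lipid sensor Trem2 and its adaptor Tyrobp signal through an intracellular ITAM motif.

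Each library column of the table holds a fitted mean from a model with genotype as its only term, not a count, so levels are given per genotype as fitted CPM (counts per 1e+06 fitted counts of the library) and no library can be viewed alone. The errors are the standard errors (SE) of the authors' deposited table, with 4 libraries per genotype. Fitted totals were between 15048646 and 27666519 per library. A gene counts as changed where the deposited adjusted p, from the DESeq2 Wald test, is under 0.05. A further 135 of the 19346 genes (0.698%) carry a fold change without a p, which is how DESeq2 output marks a gene with an outlying count in a library; which library it was cannot be read from fitted means. Of these 135 genes, 111 were lower in Qk-KO. Among them were 22 of 35 genes of the neighbouring thalamus and habenula, a list drawn up after these genes had been seen, and 4 Y-linked genes. Kdm5d, a Y-linked histone demethylase, was at 12.2 CPM in WT and 5.77 CPM in Qk-KO, and the other Y-linked genes had smaller differences, such as Ddx3y (13.1 and 10.5 CPM). Xist, the X-inactivation RNA, was detected in both groups (324 and 397 CPM), as were the Y-linked genes. The labels number the replicates without saying whether each is 1 animal, and p-values measure the spread between these libraries.

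Reads of Qk were not fewer in Qk-KO. Qk (ENSMUSG00000062078.14, on the minus strand of chromosome 17 from 10202601 to 10319854, build GRCm38) was at 713 CPM in WT and 907 CPM in Qk-KO, a log2 change of 0.32 ± 0.12 (SE) with a DESeq2 adjusted p of 0.162 per the authors' deposited table. The count covers the whole gene, with any part outside the floxed segment, so it checks neither the deletion nor the labels. No member of the list of STAR proteins and other splicing factors passed (0 of 28 tested), and the list median was 0.02. Of all tested genes 2.39% changed, so a list of this size may hold none.

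Changes were few and mostly upward. Of 19211 tested genes, 460 changed (2.39%), with 415 higher (2.16%) and 45 lower (0.234%) in Qk-KO by the deposited adjusted p. Each list count below is to be read beside these shares. With a Student reference (6 degrees of freedom) for the deposited score in place of the normal one, 8 genes passed, all higher. Of the 460 genes changed by the deposited adjusted p, 187 changed at least 2-fold (0.973% of tested genes), 167 higher and 20 lower. The tested genes as a whole had a median log2 change of -0.01, and 48.0% of them were positive. The higher genes had a median log2 change of 0.87, with a maximum of 5.65. The lower genes had a median of -0.90 and a minimum of -2.03. At the median SE of 0.18, a log2 change of about 0.59 was needed to pass. A total of 1582 genes had an unadjusted p under 0.05. Just below the minimum mean stood Fxyd3 (9.9996, log2 change 0.94 ± 0.46) and just above it Gm17212 (10.0011, -0.14 ± 0.43), and neither passed per the authors' deposited table. Of the 415 higher genes, 108 belonged to lists of microglial and immune genes, 30 to lists of oligodendrocyte genes and 13 to astrocyte lists, while 253 were in no list. None of the 45 lower genes was in a microglial, immune or astrocyte list, and 7 were in oligodendrocyte lists. The share of all tested genes in these lists was not counted, so no excess or lack can be read from these counts. A gene can stand in several lists and is counted in each.

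**Figure D1:**
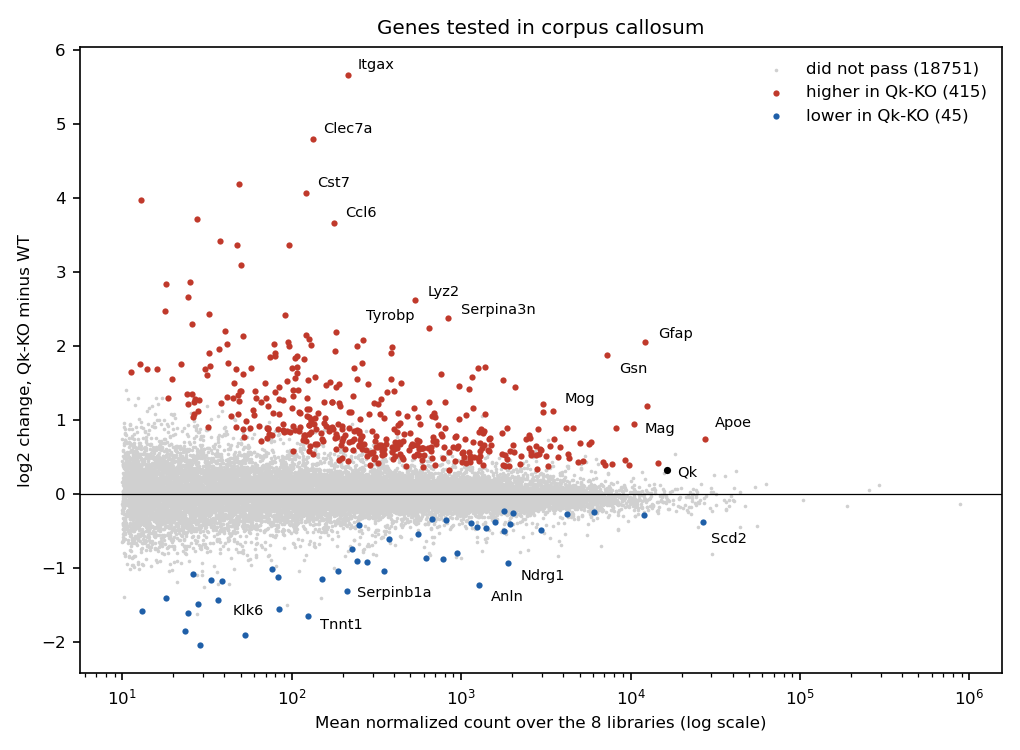
Log2 change (Qk-KO minus WT) of every tested gene against its mean normalized count on a log scale; red points are the 415 higher genes, blue points the 45 lower genes and grey points those that did not pass. Most coloured points lie above 0, up to Itgax at 5.65, while Qk (0.32), drawn in black, did not pass.

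Most genes of phagocyte receptors and their ITAM signalling rose. Of 25 tested genes of this list, 17 rose, none fell and all 25 had positive values, with a median log2 change of 0.89 against -0.01 over all tested genes. The receptor Trem2 was at 7.64 CPM in WT and 30.7 CPM in Qk-KO (log2 1.98 ± 0.23), and its adaptor Tyrobp at 10.8 and 52.1 CPM (2.24 ± 0.19), per the authors' deposited table. Clec7a, a receptor for fungal glucans that signals through a related motif, went from 0.42 to 11.8 CPM (4.79 ± 0.31 per the authors' deposited table). The receptors for the constant part of antibodies rose too per the authors' deposited table, Fcgr3 by 1.55 ± 0.25, the inhibitory Fcgr2b by 1.53 ± 0.23 and the shared signalling chain Fcer1g by 1.57 ± 0.25 log2 units. Among the kinases and exchange factors downstream, Fgr, a Src-family kinase, rose by 2.83 ± 0.42 and Vav1, an exchange factor for Rac, by 1.25 ± 0.21 per the authors' deposited table. The phosphatases that restrain the pathway rose as well, Ptpn6 by 1.54 ± 0.22 and Inpp5d, which acts on inositol lipids, by 0.81 ± 0.17 log2 units per the authors' deposited table. Syk, the kinase that binds the phosphorylated motif, did not pass at 0.62 ± 0.20, nor did Blnk (0.67 ± 0.28) or the inhibitory receptor Sirpa (0.18 ± 0.18) per the authors' deposited table. In bulk tissue, more cells of a type and more RNA per cell cannot be told apart, and this holds for every cell-type list here.

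Among members of the ITAM list that rose, 4 carrying the purine box recognised by PU.1, a myeloid transcription factor, were picked. Their promoters are shown. They are the 250 bases before the gene start from RefSeq (GRCm38.p6), with the box GAGGAAG, or its reverse complement, in capitals: Trem2 at chr17:48346151-48346400 (plus strand), Fcgr3 at chr1:171059404-171059653 (minus strand), Vav1 at chr17:57278850-57279099 (plus strand) and Inpp5d at chr1:87620062-87620311 (plus strand).
Trem2: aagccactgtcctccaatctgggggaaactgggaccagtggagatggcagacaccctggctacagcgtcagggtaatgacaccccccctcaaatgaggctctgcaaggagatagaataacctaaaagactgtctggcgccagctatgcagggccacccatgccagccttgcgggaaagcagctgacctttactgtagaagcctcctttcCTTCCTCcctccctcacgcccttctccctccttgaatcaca
Fcgr3: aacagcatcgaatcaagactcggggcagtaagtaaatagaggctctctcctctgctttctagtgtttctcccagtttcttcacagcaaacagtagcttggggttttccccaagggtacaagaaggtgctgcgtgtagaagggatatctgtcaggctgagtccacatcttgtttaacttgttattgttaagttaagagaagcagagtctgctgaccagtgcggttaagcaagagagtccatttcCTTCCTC
Vav1: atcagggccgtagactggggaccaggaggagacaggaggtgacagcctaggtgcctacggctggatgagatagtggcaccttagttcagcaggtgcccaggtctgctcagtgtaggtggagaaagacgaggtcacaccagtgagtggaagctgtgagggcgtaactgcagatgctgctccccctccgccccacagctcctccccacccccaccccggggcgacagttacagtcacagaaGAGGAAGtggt
Inpp5d: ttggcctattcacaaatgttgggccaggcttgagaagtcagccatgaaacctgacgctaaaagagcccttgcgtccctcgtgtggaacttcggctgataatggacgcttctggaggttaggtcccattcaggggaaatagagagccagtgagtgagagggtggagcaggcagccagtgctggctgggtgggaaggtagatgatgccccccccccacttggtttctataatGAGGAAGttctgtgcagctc
Counted from the gene start, the box begins 41 bases upstream in Trem2 and 7 in Fcgr3, both on the strand opposite to the gene. It begins 11 bases upstream in Vav1 and 20 in Inpp5d, on the strand of the gene. Searched on both strands, GAGGAAG lies in 9 of the 21 promoters available for this list (42.9%), against 1551 of 11991 promoters of tested genes (12.9%). The 70 of 309 promoters of higher genes that hold it are 22.7%. The share was 6 of 34 (17.6%) in the disease-associated microglia list and 4 of 30 (13.3%) in mature oligodendrocyte genes. Of the 9 genes of the ITAM list with the box, 6 rose (Trem2, Fcgr3, Vav1, Inpp5d, Fcgr1 and Cd33) and 3 did not pass (Cd300lf, Pirb and Cd300a). In the whole list 17 of 25 tested genes rose. A match of letters is a description and was not tested as a binding site.

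Of the lists used here, that of disease-associated microglia held the most changed genes by number. Of its 45 tested members 30 were higher and none lower, with a median log2 change of 0.88. The lists differ in size, with 17 of 25 genes higher in the ITAM list and 6 of 7 in the NADPH oxidase list. Itgax, the integrin chain CD11c (ENSMUSG00000030789.9, chromosome 7, 128129547 to 128150657), had the highest change of all tested genes, from 0.363 CPM in WT to 18.5 CPM in Qk-KO. Other members that rose included the protease inhibitor Cst7 (4.06 ± 0.31), the surface glycoprotein Cd52 (3.37 ± 0.27) and the lysozyme Lyz2 (2.62 ± 0.21) per the authors' deposited table. The secreted factors of this state were also higher per the authors' deposited table, with osteopontin (Spp1) at 1.50 and the lectin Lgals3 at 1.85. The lipoprotein component Apoe, one of the 10 changed genes with the highest mean count, rose by 0.74 ± 0.15 log2 units per the authors' deposited table, and the lipase Lpl by 0.72 ± 0.18. Among the 15 list members that did not pass per the authors' deposited table were the growth factor Igf1 (0.11 ± 0.13), the lipid droplet coat gene Plin2 (0.47 ± 0.16) and the fatty acid carrier Fabp5 (0.24 ± 0.09).

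Genes of resting microglia rose in part. Of 25 tested homeostatic microglia genes, 10 rose and none fell, with a median log2 change of 0.36, where 2.16% of all tested genes rose. The scavenger receptor Fcrls went from 18 to 56.4 CPM (1.62 ± 0.21) per the authors' deposited table. Csf1r, the receptor that sustains microglia, rose by 0.87 ± 0.16 and the fractalkine receptor Cx3cr1 by 0.83 ± 0.15 log2 units per the authors' deposited table. The purinergic receptor P2ry12 (0.18 ± 0.13), Tmem119 (0.10 ± 0.15) and the lectin Siglech (0.28 ± 0.16) did not pass per the authors' deposited table. The ligand Csf1 rose from 22.5 to 47 CPM (1.04 ± 0.15, adjusted p = 7.84e-10, DESeq2) per the authors' deposited table, while the alternative ligand Il34, at 0.02 ± 0.26, did not pass.

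Effector genes of phagocytes rose in part. In the NADPH oxidase, the membrane complex that makes superoxide, 6 of 7 genes rose, with a list median of 1.45. Its membrane subunits Cybb and Cyba rose by 2.13 ± 0.28 and 1.48 ± 0.18, its cytosolic subunit Ncf1 by 0.72 ± 0.15, and the proton channel Hvcn1 by 1.69 ± 0.33 log2 units per the authors' deposited table. The member that did not rise, Ncf4, had 0.95 ± 0.44 and did not pass per the authors' deposited table. Of 23 complement genes, 9 rose. The 3 chains of C1q, the initiator of the classical pathway, all rose per the authors' deposited table (C1qa 1.54 ± 0.23, C1qb 1.46 ± 0.22 and C1qc 1.58 ± 0.21 log2 units). C3 rose by 1.86 ± 0.31, C4b by 1.71 ± 0.23 and the receptor C3ar1 by 2.15 ± 0.25 per the authors' deposited table. C4b has a near-identical neighbour, C4a (0.29 ± 0.31 per the authors' deposited table), so reads may have been split between them. The membrane regulator Cd59a, at -0.42 ± 0.20, did not pass per the authors' deposited table.

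Sensors of microbial and cellular debris were higher in part. Of 23 genes of toll-like receptor signalling, 10 rose (median 0.61), led by the lipopeptide receptors Tlr2 (2.42 ± 0.27) and Tlr1 (2.30 ± 0.40) per the authors' deposited table. The co-receptor Cd14 rose by 1.83 ± 0.25 and the trafficking factor Unc93b1, needed by the endosomal receptors, by 1.38 ± 0.18 per the authors' deposited table. Of those endosomal receptors, Tlr7 rose by 1.15 ± 0.25, while Tlr3 had 0.03 ± 0.17 and did not pass per the authors' deposited table. None of 21 interferon response genes passed, against 2.39% of all tested genes, and the list median was 0.18. Among 22 myeloid transcription factors, 5 rose: Spi1 (1.30 ± 0.27), Irf8 (1.49 ± 0.17), Irf5 (0.84 ± 0.21), Cebpa (0.81 ± 0.21) and Fli1 (0.55 ± 0.17) per the authors' deposited table.

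Chemokines, which draw in other leukocytes, were among the genes with the highest changes. Of 19 genes of the chemokine list 8 rose, with Ccl3 going from 0.23 to 4.27 CPM, Ccl4 from 0.176 to 2.34 CPM and Ccl6 from 1.2 to 15.4 CPM. The member with the highest mean count, the neuronal chemokine Cx3cl1, was at -0.01 ± 0.19 per the authors' deposited table and did not pass. Of 22 genes of antigen presentation, 5 rose. They were the MHC class II chains H2-Aa (1.39 ± 0.34) and H2-Ab1 (1.40 ± 0.39), their invariant chain Cd74 (1.93 ± 0.34), the co-stimulator Cd86 (1.30 ± 0.28) and B2m, the light chain of class I (0.59 ± 0.15), per the authors' deposited table. The class I heavy chain genes H2-D1 (0.32 ± 0.20) and H2-K1 (0.25 ± 0.19) did not pass per the authors' deposited table; genes of this family share reads, so their values are uncertain.

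Most markers of blood-derived leukocytes were under the minimum mean or did not pass. In the lymphocyte list 16 of 22 genes lay under the minimum mean, and none of the 6 tested passed, against 2.39% of all tested genes. The tested genes summed to 39.2 CPM in WT and 49.7 CPM in Qk-KO. Among them were the antibody heavy chain Ighm (25.1 and 33.5 CPM), the T cell receptor constant gene Trbc2 (6.06 and 7.5 CPM) and Cd4 (5.99 and 6.87 CPM). Cd3e and Cd3d, chains of the T cell receptor complex, were at 0.00535 and 0.0575 CPM in WT and at 0.00512 and 0.0491 CPM in Qk-KO. For neutrophils 11 of 14 genes were under the minimum, and the 1 that rose, Csf3r (1.33 ± 0.20 per the authors' deposited table), is also expressed by microglia. The monocyte gene Ccr2 was at 0.52 and 0.648 CPM (0.29 ± 0.42 per the authors' deposited table), and Ly6c2 and Plac8 were under 0.1 CPM in both groups. Of 19 tested genes of border macrophages and monocytes, only Cd44 rose (1.30 ± 0.25 per the authors' deposited table), a hyaluronan receptor that is also on the reactive astrocyte list.

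The degradation machinery rose unevenly. Of 17 genes of cathepsins and their inhibitors, 9 rose (median 0.52), among them Ctsd (1.19 ± 0.14), Ctss (1.45 ± 0.17), Ctsz (1.42 ± 0.19) and Ctsh (1.24 ± 0.17) per the authors' deposited table. Of 46 tested lysosome genes, 8 rose and the median was 0.12. Those that rose included the macrophage glycoprotein Cd68 (2.09 ± 0.21), Laptm5 (1.39 ± 0.19), progranulin (Grn, 1.07 ± 0.18) and the mannosidase Man2b1 (0.83 ± 0.12) per the authors' deposited table. The proton pump subunit Atp6v1a (-0.18 ± 0.12) and prosaposin (Psap, 0.03 ± 0.09), both present in most cell types, did not pass per the authors' deposited table. The E-box CACGTG, which matches the CLEAR element of lysosomal genes, lies in 10 of 39 lysosome gene promoters (25.6%), in 1118 of 11991 promoters of tested genes (9.32%) and in 23 of 309 promoters of higher genes (7.44%). Genes of the actin and myosin list rose in 13 of 34 cases and fell in 1 case. The haematopoietic members Lcp1 (1.28 ± 0.14), Dock2 (1.48 ± 0.18) and Myo1f (2.18 ± 0.24) were among the 13 per the authors' deposited table, and the plastin gene Pls1, an oligodendrocyte gene here, was the one that fell (-1.03 ± 0.21).

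**Figure D2:**
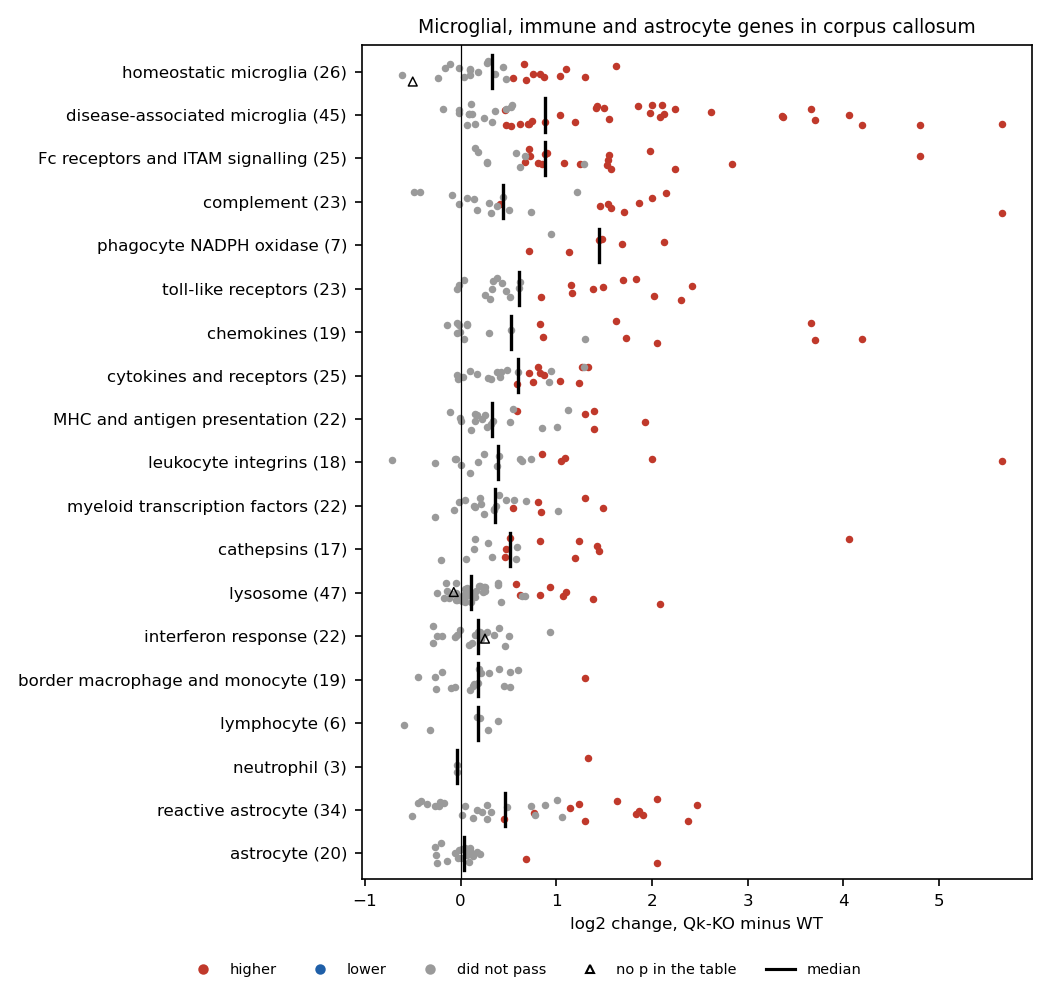
Log2 change (Qk-KO minus WT) of each gene in the microglial, immune and astrocyte lists, 1 row per list with the number of genes drawn; red marks higher, grey did not pass, triangles have no p in the table, and the black bar is the median of the genes drawn. No gene of these lists fell, against 0.234% of all tested genes. The oxidase list has the highest median (1.45), while the lymphocyte, interferon and astrocyte lists lie near 0.

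Reactive astrocyte genes rose in part, and most general astrocyte genes did not pass. Of 34 tested reactive astrocyte genes, 12 rose and none fell, with a median log2 change of 0.47, whereas among 20 general astrocyte genes 2 rose and the median was 0.03. Gfap, the intermediate filament of astrocytes (chromosome 11, 102887336 to 102900912, minus strand), went from 228 to 965 CPM, a rise of 2.06 ± 0.19 log2 units per the authors' deposited table. Serpina3n, a secreted protease inhibitor, rose by 2.38 ± 0.14 with the second smallest adjusted p among the genes named here (1.3e-56, DESeq2, authors' deposited table). The calcium-binding S100a6 rose by 1.90 ± 0.21, the asparaginase Aspg by 1.63 ± 0.22 and the oncostatin M receptor Osmr by 1.24 ± 0.21 per the authors' deposited table. The filament gene Vim had 1.06 ± 0.36 and did not pass per the authors' deposited table. The water channel Aqp4 rose from 188 to 308 CPM (0.69 ± 0.18), while the glutamate transporters Slc1a2 (0.10 ± 0.16) and Slc1a3 (0.10 ± 0.10) did not pass per the authors' deposited table. Among these reactive genes, Cd14 and C3 are microglial genes as well, and Serpina3n is also on the list of oligodendrocyte genes linked to demyelination.

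Oligodendrocyte genes moved both ways. Of 20 compact myelin genes, 6 rose and none fell, with a median log2 change of 0.20. Mog, a protein of the outer myelin surface (chromosome 17, 37010743 to 37023398, minus strand), went from 107 to 236 CPM, and Opalin, a sialylated membrane protein, from 35.3 to 80.2 CPM. Mag, the adhesion molecule of the membrane facing the axon, rose from 352 to 687 CPM, and the tetraspanins Cd82 and Cd9 rose by 1.02 ± 0.19 and 0.88 ± 0.14 log2 units per the authors' deposited table. Plxnb3, a semaphorin receptor, rose by 0.74 ± 0.16 per the authors' deposited table. The classic structural myelin genes did not pass per the authors' deposited table, with Mbp at 0.14 ± 0.16, Mobp at 0.00 ± 0.19 and Cnp at 0.31 ± 0.15. Mal, a proteolipid of myelin, had -0.48 ± 0.16 and did not pass either, per the authors' deposited table.

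At the node and paranode, where myelin meets the bare axon, 3 of 15 genes rose, against 2.16% of all tested genes. The 3 were the adhesion molecule Cntn2 (0.70 ± 0.12, from 218 to 362 CPM), the junction protein Jam3 (0.51 ± 0.15) and the scaffold Epb41l2 (0.40 ± 0.11) per the authors' deposited table. In the septin and anillin scaffold that lines the inner myelin layer, only Anln changed (chromosome 9, 22332012 to 22389188, minus strand), falling from 86.3 to 37.6 CPM (-1.22 ± 0.21 per the authors' deposited table). The septins did not pass per the authors' deposited table, with Sept4 at 0.07 ± 0.14, Sept7 at 0.10 ± 0.13 and Sept8 at -0.04 ± 0.16.

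Among 43 mature oligodendrocyte genes, 14 rose and 6 fell, with a median log2 change of 0.39. Of all tested genes 2.16% rose and 0.234% fell, which is also the background for the newly formed and precursor lists below. The actin-severing gelsolin (Gsn) rose from 149 to 558 CPM (1.88 ± 0.21), the gap junction proteins Gjb1 and Gjc3 rose by 1.05 ± 0.19 and 0.57 ± 0.14, and the phosphatase inhibitor Ppp1r14a rose by 1.09 ± 0.23 per the authors' deposited table. The 6 that fell were the serine protease Klk6 (-1.55 ± 0.35), the protease inhibitor Serpinb1a (-1.30 ± 0.18), Pls1, Ndrg1 (-0.93 ± 0.16), the nodal link protein Hapln2 (-0.86 ± 0.17) and the mitochondrial Efhd1 (-0.61 ± 0.15) per the authors' deposited table. Serpinb1a went from 14.7 to 6.05 CPM and Ndrg1, whose loss causes a demyelinating neuropathy, from 122 to 65.1 CPM. Enzymes and proteins typical of mature cells that did not pass per the authors' deposited table included Ugt8a (-0.07 ± 0.19), Aspa (-0.07 ± 0.15), Car2 (0.07 ± 0.18) and Tppp (-0.09 ± 0.14), named after their values were seen. Genes of newly formed oligodendrocytes rose in 3 of 17 cases, Casr by 1.69 ± 0.34, Bcas1 by 0.90 ± 0.23 and Mpzl1 by 0.54 ± 0.15 per the authors' deposited table. Of 19 precursor genes, Lims2 alone rose (0.65 ± 0.19), while the precursor growth factor receptor Pdgfra had 0.07 ± 0.09 per the authors' deposited table.

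Transcription factors of the lineage rose in 4 of 21 cases, against 2.16% of all tested genes. Myrf, the master factor of myelin genes, went from 43 to 92.8 CPM (1.09 ± 0.17), Sox8 rose by 0.83 ± 0.18, Nkx6-2 by 0.78 ± 0.21 and Zfp536 by 0.47 ± 0.13 per the authors' deposited table. Olig1 (0.31 ± 0.16) and Zfp488 (0.22 ± 0.17) did not pass per the authors' deposited table. Of 18 genes linked to oligodendrocytes in demyelinating tissue, 5 rose and 1 fell. The stress factor Atf3 rose by 1.78 ± 0.36 and the tetraspanin Cd63 by 0.62 ± 0.15, beside Serpina3n, C4b and B2m, while Klk6 fell, per the authors' deposited table. None of 33 cell cycle genes and none of 13 PPAR and RXR receptor genes passed. Of all tested genes 2.39% changed, so lists of this size may hold none. Of 23 cholesterol synthesis genes, 2 fell, against 0.234% of all tested genes, and the median was -0.16. Insig1, a brake on sterol synthesis, fell by 0.50 ± 0.13 and Idi1 by 0.35 ± 0.10 log2 units per the authors' deposited table.

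**Figure D3:**
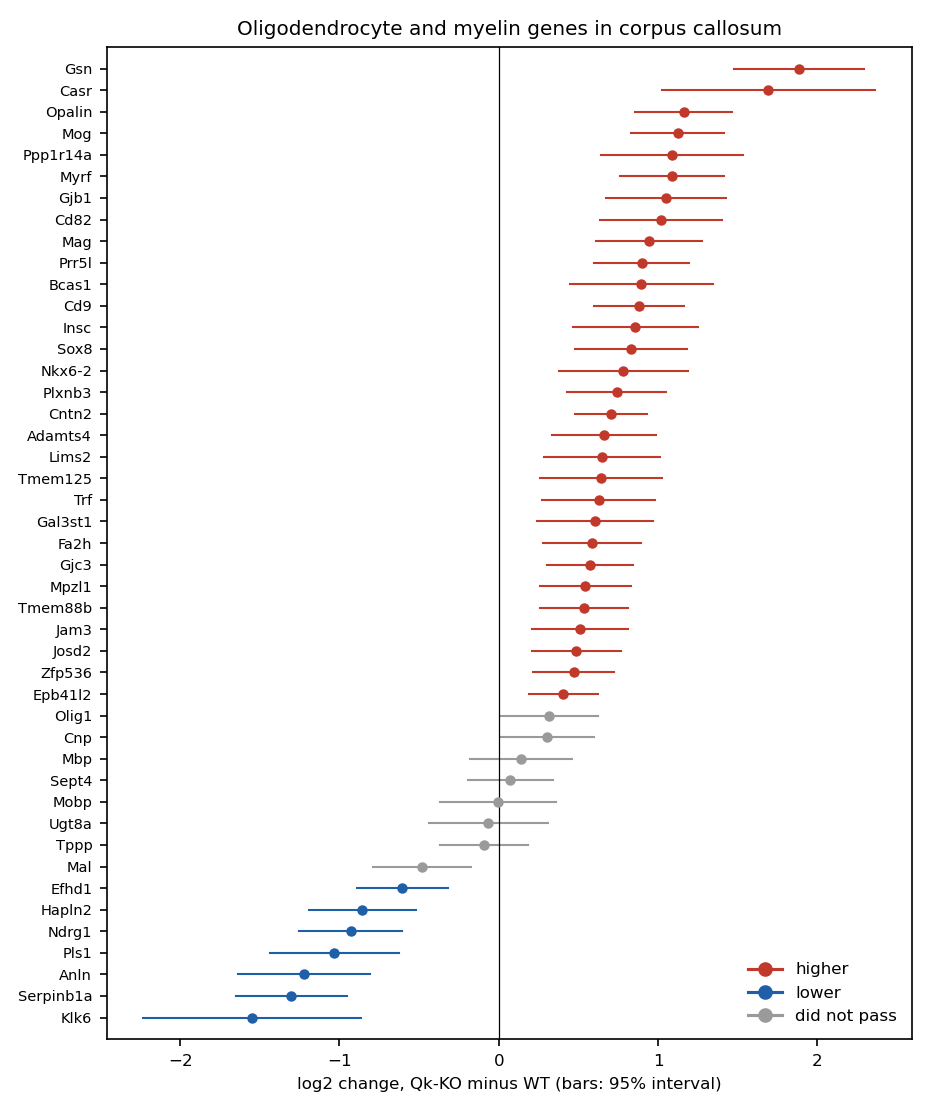
Log2 change (Qk-KO minus WT) of oligodendrocyte and myelin genes, with bars for the 95% interval from the SE; red marks higher, blue lower and grey did not pass. The classic structural genes such as Mbp (0.14) and Mobp (0.00) lie between the genes that rose, led by Gsn (1.88), and the 7 that fell, ending with Klk6 (-1.55).

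The genes with the lowest changes at a mean of at least 100 were partly outside the oligodendrocyte lists. Tnnt1, a troponin of slow muscle, fell from 8.81 to 2.86 CPM (-1.65 ± 0.38), and the sulfatase Arsg fell by 0.87 ± 0.10 with a DESeq2 adjusted p of 7.3e-16 per the authors' deposited table. Prrg1 (-0.92 ± 0.16), Mctp2 (-1.15 ± 0.35), Mcf2 (-0.90 ± 0.26), Tmem144 (-0.73 ± 0.16) and Klhl4 (-0.54 ± 0.12) fell as well per the authors' deposited table. Cldn2, a tight junction claudin of the choroid plexus, and Igfbp2 fell by 1.04 ± 0.32 and 0.80 ± 0.24 log2 units per the authors' deposited table. Among the 10 changed genes with the highest mean counts, the desaturase Scd2 fell by 0.38 ± 0.09 and Ndrg2 by 0.28 ± 0.09, while Clu (0.42 ± 0.12) and Abca2 (0.39 ± 0.12) rose, per the authors' deposited table.

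Genes of tissue that borders the callosum mostly did not pass or carry no p, where 2.39% of all tested genes changed. Their levels are given here for the whole lists. Of 20 choroid plexus genes 19 were lower in Qk-KO (median -0.77), with 2 past the threshold, and they summed to 4436 CPM in WT and 3187 CPM in Qk-KO. Ttr, the transthyretin of choroid plexus, was at 1865 and 1081 CPM (-0.81 ± 0.38), and Kl and Folr1 had -0.86 ± 0.38 and -0.82 ± 0.31 per the authors' deposited table, without passing. The 1 member with a positive value, Tmem72 (0.08 ± 0.16 per the authors' deposited table), made up 742 CPM of the WT sum. Enpp2 made up 1414 CPM of the WT sum and 1059 CPM of the Qk-KO sum. It did not pass at -0.44 ± 0.22 per the authors' deposited table. Of the 35 thalamus and habenula genes 34 were lower, with a median of -0.59 and sums of 1867 CPM in WT and 1191 CPM in Qk-KO. Prkcd, a kinase of thalamic neurons, was at 94.1 and 47.8 CPM, and the homeobox gene Shox2 at 17.4 and 6.78 CPM, both without a p. The 17 striatal genes were all positive with a median of 0.12, and none passed. Of 24 tested general neuron genes 3 were positive and none passed, with a median of -0.11 and summed levels of 11307 and 10517 CPM. The 14 mitochondrially encoded genes were all negative (median -0.19) and none passed. Ependymal, endothelial, fibroblast and cortical lists had medians between -0.08 and 0.07 with no member past the threshold, and blood genes a median of 0.36. The part of uneven neighbouring tissue in the lower genes was not tested.

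**Figure D4:**
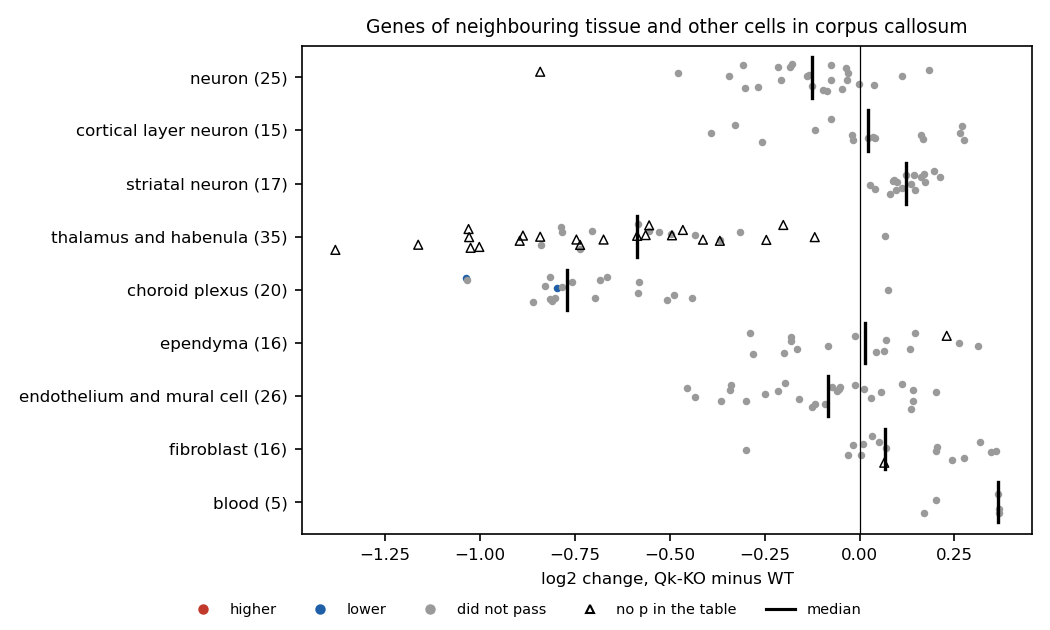
Log2 change (Qk-KO minus WT) of genes of neighbouring tissue and other cells, 1 row per list with the number of genes drawn; blue marks lower, grey did not pass, triangles have no p in the table, and the black bar is the median of the genes drawn. Choroid plexus genes and the thalamus and habenula genes lie mostly below 0, many of the latter without a p, while striatal genes lie just above 0.

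The callosum changes were set against those between libraries labelled Qk-KO and WT in cultured oligodendrocytes, 3 libraries per genotype. These cells were made from neural stem cells with IGF-1 and triiodothyronine. In culture the labels give 40HT for every library labelled Qk-KO and EtOH for every library labelled WT, so treatment and genotype cannot be told apart. In callosum both groups were given tamoxifen, so the contrasts differ in their controls. The culture labels also pair a Qk-KO with a WT library at each of 3 passages, which the deposited genotype-only model and its SE do not use. The difference between the deposited log2 changes of both systems was tested with a z test, two-sided, adjusted over 16601 genes tested in both, of which 3577 differed (21.5%). Of 30 genes of the myelin, scaffold, mature and newly formed oligodendrocyte lists that changed in callosum, 28 were tested in both systems and 8 differed (6 above culture and 2 below), to be read beside that background. Changed in the same direction in both systems were 6 genes: Serpinb1a, Pls1 and Efhd1 fell, and Opalin, Mog and Fa2h rose. Serpinb1a fell by 1.30 ± 0.18 in callosum and by 1.33 ± 0.44 in culture per the authors' deposited tables. Mog rose by 1.12 ± 0.15 in callosum and by 1.28 ± 0.52 in culture per the authors' deposited tables. Cd9 and Prr5l rose in callosum (0.88 ± 0.14 and 0.90 ± 0.15) and fell in culture (-0.61 ± 0.17 and -1.86 ± 0.27) per the authors' deposited tables. Anln, which fell in callosum, had -0.06 ± 0.23 in culture and did not pass there per the authors' deposited table. Each system was normalized on its own, so levels were not compared between them.

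**Figure D5:**
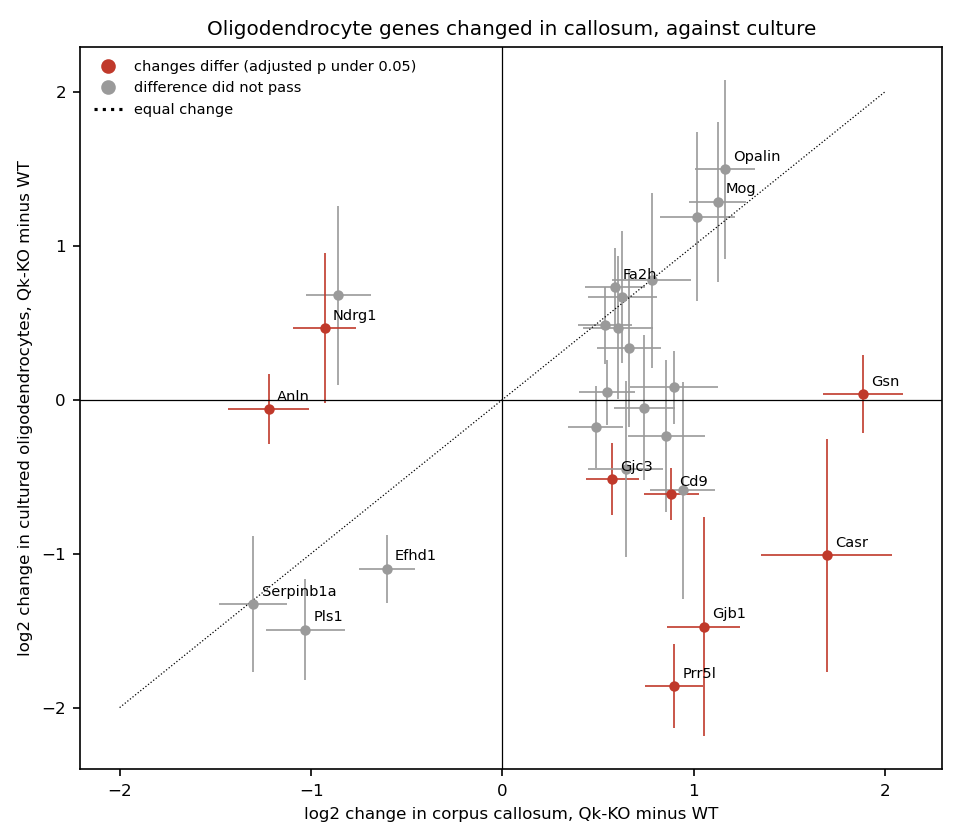
Log2 change (Qk-KO minus WT) in cultured oligodendrocytes against that in corpus callosum for the 28 oligodendrocyte genes changed in callosum and tested in both; bars are 1 SE, and the dotted line marks equal change. The 8 genes in red differed by the z test, as did 21.5% of all genes tested in both systems. Among the 8 is Prr5l (0.90 in callosum, -1.86 in culture), while Serpinb1a and Mog lie close to the line.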

How the data were processed

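Total RNA was sequenced on an Illumina HiSeq2000, per the labels' protocols and the series' design text. Per the submitters' processing notes, the authors used the tools DESeq2, featureCounts, TopHat2 2.0.14 and FastQC and the build mm10. Their settings, annotation and strand option were not given in the sources used here, and where genes overlap on opposite strands their reads cannot be separated. The authors deposited per gene a mean normalized signal (counts divided by size factors), a log2 fold change with its standard error, a score that is their quotient, and a p-value with its Benjamini-Hochberg adjusted value, per the file headers. Recomputing the adjusted p-value from the deposited p-value gave the same values within 4.42e-12. The deposited library columns are on a log2 scale and hold fitted means plus 1: within a genotype they differ by a constant for every gene, with an SD of at most 2.22e-11. Fitted CPM is a gene's share of a library's fitted sum per 1e+06.

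Deposited fold changes run from WT over Qk-KO and were turned to Qk-KO minus WT. Folds of genes with low counts look shrunken toward 0 and may be understated. Calls are the deposited adjusted p under 0.05 at a mean of at least 10. The planned tests on counts or log2 values per library were not run, since fitted means carry no spread. Sequences came from RefSeq (GRCm38.p6) and gene positions from GENCODE M21 (GRCm38). The 48 gene lists, the members and the list of thalamus and habenula genes were chosen with earlier results of these data known, so list counts and medians carry no test. Genes named are Qk, the 15 called genes with the highest and the 15 with the lowest change at a mean of at least 100, the 10 called genes with the highest mean, per list up to 8 called genes per direction and up to 3 that did not pass, cell type markers and the genes compared with culture. Genes outside this rule were named after their values were seen, among them Vav1, Inpp5d, Fcgr1, Cd33, Cd300lf, Pirb, Cd300a, Syk, Spp1, Lgals3, Igf1, Plin2, Fabp5, C4a, Mal and the genes without a p. Some results are not reported here. Alternatives tried were other adjusted p thresholds (0.01 and 0.1), a mean of at least 50 or no minimum, a Student reference for the score with 6 degrees of freedom, and 2 other scalings. The calculations used Python 3.11.15 with pandas 2.3.3, numpy 2.4.6 and scipy 1.17.1, and were tested on simulated data.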

Additional observations from a re-analysis of the deposited data

Results flagged for a closer look

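Of 28 oligodendrocyte genes that changed in callosum and were tested in both systems, 8 had a change that differed from culture by the z test. Over all genes tested in both systems, 3577 of 16601 differed (21.5%). The 28 genes were chosen for their change in callosum, which can widen the difference. The callosum minus culture difference in log2 change was 2.76 for Prr5l, 2.70 for Casr, 2.52 for Gjb1, 1.85 for Gsn, 1.49 for Cd9 and 1.09 for Gjc3. It was -1.39 for Ndrg1 and -1.16 for Anln. The adjusted p of the difference ran from 1.45e-16 (Prr5l) to 0.0349 (Ndrg1). In culture the fitted levels of Gjb1 and Casr were under 0.4 CPM in both genotypes, and Ndrg1 stood at 0.807 and 1.17 CPM. Only Prr5l and Cd9 passed the deposited DESeq2 test in culture, both lower, with adjusted p of 2.77e-10 and 0.00181.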

How the results depend on the processing

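Lower genes numbered 24 at an adjusted p under 0.01 and 72 under 0.1, against 45. With a Student reference in place of the normal one, 8 genes changed, 8 higher and 0 lower, and 8 of them at least 2-fold (Itgax, Serpina3n, Clec7a, Ccl6, Cst7, Cd52, Lyz2 and Ptprc). An unadjusted p under 0.05 held for 887 genes with the Student reference, 214 of them lower, and for 1582 genes with the deposited DESeq2 test. Of the genes picked for naming, not all of which appear in the text, 216 that passed no longer did with that reference. A mean of at least 50, no minimum and both other scalings gave 421 to 486 changed genes, 386 to 451 of them higher and 34 to 40 lower, within 1.5 times the counts reported. With scaling by library totals, which moves every log2 change by 0.02, 450 of the 460 calls were shared and 36 were added; recentred to a median of 0, 455 were shared and 14 added. Among the genes picked for naming, scaling by library totals left Cldn2, Edil3, Gstm5, Igfbp2, Mctp2, Ncs1, Ndrg2 and Wfdc2 short of the threshold. With that scaling Fth1 and Syk passed. Recentring left Gstm5, Mctp2 and Ndrg2 short of the threshold, while Fth1 passed. Directions of called genes were not tested by these settings. Both scalings move every log2 change by about 0.02 or less, and the other settings leave it unchanged. The comparison with culture found 9 differing genes after recentring and 6 of 22 at a mean of at least 50 in both tables. No paired analysis was possible because the library columns hold fitted means, which carry no replicate spread. For that reason leaving out a replicate and repeating the fit with another tool were not run, and no call can be tied to a single library. Depth limits the genes with low means, whose standard errors are larger.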

Other observations

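Beyond the lists, 253 higher genes remained, and the genes named here were chosen after their values were seen. Several encode surface receptors of leukocytes. The SLAM-family receptors Ly9 (3.42 ± 0.41), Slamf9 (2.20 ± 0.32), Cd48 (1.91 ± 0.39) and Cd84 (1.55 ± 0.21) rose per the authors' deposited table. The sialic acid receptors Siglecf (3.10 ± 0.34) and Cd22 (2.66 ± 0.38) rose as well per the authors' deposited table, although Cd22 is best known from B cells. Checkpoint receptors known from T cells rose, with Pdcd1 at 2.87 ± 0.42, Lag3 at 1.70 ± 0.30 and Havcr2 at 1.10 ± 0.19 per the authors' deposited table. Ptprc, the pan-leukocyte phosphatase CD45, went from 5.73 to 19.9 CPM. The elastase Mmp12 was at 0.0648 CPM in WT and 1.03 CPM in Qk-KO (3.97 ± 0.50 per the authors' deposited table). The NLR genes Naip2 (1.91 ± 0.29) and Naip6 (1.12 ± 0.32) rose per the authors' deposited table but share sequence with their neighbours, so reads may be split between them.

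Single genes known from oligodendrocytes but outside the lists went both ways. Those that rose per the authors' deposited table include the sphingosine receptor S1pr5 (0.93 ± 0.14), Serinc5 (0.89 ± 0.13), Phldb1 (0.89 ± 0.16), the ephrin Efnb3 (0.76 ± 0.13) and the orphan receptor Gpr62 (0.70 ± 0.17). Those that fell include Tmem144 (-0.73 ± 0.16) and Edil3 (-0.27 ± 0.08) per the authors' deposited table. The lower genes Myl1 (-2.03 ± 0.46) and Fbxo40 (-1.48 ± 0.44), like Tnnt1, are known from striated muscle, and no list of muscle genes was drawn up. Other muscle genes did not pass or carry no p per the authors' deposited table. Smyd1 (-0.28 ± 0.33), Mybpc1 (-0.21 ± 0.36) and Actn2 (0.24 ± 0.44) did not pass. Cacna1s (-1.10 ± 0.52), Cox6a2 (-0.72 ± 0.38) and Ckm (-0.41 ± 0.42) were lower in Qk-KO without a p. The lipid genes Scd1 and Degs1 fell by 0.48 ± 0.13 and 0.38 ± 0.09 log2 units per the authors' deposited table. Below the minimum mean, 3 genes passed per the authors' deposited table: Hcar2, the niacin receptor of myeloid cells (2.35 ± 0.50), Rab44 (1.56 ± 0.46) and Nkx2-9 (-1.64 ± 0.46).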
